A study of Mus musculus with 36 samples.

Results

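The striatal transcriptome of C57BL/6J mice was compared after 1 injection of morphine and after saline, on 3 arrays of acute morphine and 3 arrays of saline, chosen by the strain and treatment in the labels. These 6 arrays belong to a set of 36 that covered 4 inbred strains (C57BL/6J, 129P3/J, DBA/2J and SWR/J) under acute morphine, chronic morphine and saline, with 3 arrays in each of 12 groups. Acute morphine mice received saline 3 times a day for 4 days and then 20 mg/kg of morphine under the skin on the last of 5 days. Saline mice were injected on the same schedule with saline throughout, so that repeated handling and injection were common to both groups. All mice were adult males of 8 to 10 weeks, and the rostral caudate and putamen with the nucleus accumbens were taken 4 hours after the last injection. Each array held RNA pooled from 3 mice, with 9 mice in a group, so p-values measured the spread between pools and the spread between single mice was not measured.

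Expression was read on Affymetrix Mouse Genome 430 2.0 arrays, on which a transcript is measured by a probe set, a group of short oligonucleotides, and given as an intensity on a linear scale. Differences are acute morphine minus saline on the log2 scale, where a change of 1 is a 2-fold rise. Of 45037 probe sets other than controls, 25885 (57.5%) exceeded a log2 intensity of 6.64 on at least 3 of the 6 arrays and were tested, and they named 12872 genes. Each gene is given by its brightest detected probe set, and intensities of different genes are not compared with each other because probe sets differ in binding.

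Morphine acts on the mu opioid receptor, which lowers neuronal excitability through inhibitory G proteins, and in the striatum opioid peptides and dopamine act on the medium spiny neurons that send the output of this region. Opioids also act on the hypothalamus and pituitary, which control the release of glucocorticoid from the adrenal gland. Bound to glucocorticoid, the glucocorticoid receptor enters the nucleus and binds response elements in DNA near its target genes, and it does so in neurons, glia and blood vessel cells alike. Oligodendrocytes wrap axons of the striatal fibre bundles in myelin and carry the same receptor.

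The arrays were alike in overall signal, with median intensities of 118.8 to 130.8, and log2 values of pairs of arrays correlated at 0.966 to 0.987 within a group and at 0.966 to 0.983 between the groups. One array stood apart in RNA quality. On saline replicate 1, the Gapdh control probe sets near the 3′ end exceeded those near the 5′ end by 0.72 on the log2 scale, against -0.07 to -0.03 on the other 5 arrays, and the same difference for Actb was 1.29 against 0.37 to 0.50. A large difference of this kind is a sign of shortened RNA. The cortical glutamate transporter Slc17a7 had intensities of 443, 719 and 593 in the acute morphine pools, against 181, 183 and 789 in the saline pools. Saline replicates 1 and 2 thus lay below all acute morphine pools, and saline replicate 3 stood apart from them. The change was 0.95 (limma, adjusted p = 0.468). The cortical gene Tbr1 had 103, 111 and 151 against 47.5, 50.5 and 138, a change of 0.79 (adjusted p = 0.458). Of 17 cortical markers, 13 had a change above 0 and 4 below. The choroid plexus protein transthyretin (Ttr) had 1102, 1133 and 1527 in the acute morphine pools, against 1129, 6119 and 1320 in the saline pools, so that saline replicate 2 stood apart. Results are therefore given with and without each array where 1 array decided a call, and the part of RNA quality or dissection in them was not tested.

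Acute morphine changed 88 probe sets in C57BL/6J striatum, of which 37 rose and 51 fell (limma, adjusted p below 0.05). Against 25885 probe sets tested, the rises were 0.143% and the falls 0.197%, and the 88 together 0.34%. The 37 that rose named 29 genes, and the 51 that fell named 46. Rises were the larger, with a median log2 change of 0.94 and a maximum of 1.80, and 15 of them exceeded 2-fold. Falls had a median of -0.67, and 3 exceeded 2-fold. The 3 acute morphine arrays lay outside the range of the 3 saline arrays for each of the 88, as they did for 16.7% of all probe sets tested, and 4 of the 88 had passed the signal limit through 1 group only (Net1 and Nostrin through acute morphine, Rell1 and an Flt1 probe set through saline). By brightest probe set, 25 genes rose (0.194%) and 36 fell (0.28%).

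The counts leaned on the pooled estimate of spread and on single arrays. Fitted on the 6 arrays alone, without the other 30 to estimate the spread, 1 probe set rose and 0 fell in limma, with 1029 higher and 1337 lower at an unadjusted p below 0.05, beside 980 higher and 1891 lower when all 36 arrays set the spread. Without saline replicate 1, 26 probe sets rose and 15 fell, and 21 of the rises and 14 of the falls were among the original calls. The falls numbered 37, 11 and 10 without acute morphine replicates 1, 2 and 3, and 23 and 86 without saline replicates 2 and 3. Calls present in every one of the 6 fits that left out an array numbered 17 among the rises (probe sets of Cdkn1a, Zbtb16, Tsc22d3, Gm19439, Sgk1, Fkbp5, Cebpd, Smim3, Slc2a1, Trp53inp1, Aff1 and Camk1g, and 1 with no gene name) and 6 among the falls (Cdc42ep2, Gab1, Tle4, Aspa, Opalin and Nrp1).

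The genes that rose included targets of the glucocorticoid receptor. The gene lists were written with earlier results of these data known, so their counts are descriptions and partly fixed in advance. Of 33 measured genes of the glucocorticoid-responsive list, 13 rose and 0 fell, 31 had a change above 0 (42.7% of all genes had), and the median change was 0.35, beside a median of -0.036 over all 12872 genes and rises in 0.194% of them. At an unadjusted p below 0.05, 23 of the 33 were higher and 1 was lower, beside 3.33% and 8.96% of all genes. The mean log2 intensity of the list lay at 9.59 to 9.74 on the acute morphine arrays and at 9.01 to 9.13 on the saline arrays. Without saline replicate 1, 7 of the 13 rises remained past the threshold and the median change was 0.41.

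Cyclin-dependent kinase inhibitor 1A (Cdkn1a), the p21 protein that halts the cell cycle and a target of p53 as well as of the glucocorticoid receptor, had intensities of 655, 642 and 576 after acute morphine, against 187, 184 and 167 after saline. This was the largest rise among the probe sets tested that passed the threshold, at 1.80 ± 0.18 (SE) on the log2 scale or 3.48-fold (adjusted p = 1.88e-06), and every acute morphine pool was more than 3-fold above every saline pool. A second, dimmer Cdkn1a probe set had a change of 0.41 with an adjusted p of 0.528. FK506 binding protein 5 (Fkbp5), a cochaperone that lowers the affinity of the glucocorticoid receptor for its hormone and is induced by it, had 1018, 852 and 933 after acute morphine, against 517, 449 and 495 after saline. It rose by 0.94 ± 0.09 (adjusted p = 1.66e-06), and a second Fkbp5 probe set rose by 1.07.

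Serum/glucocorticoid regulated kinase 1 (Sgk1), a kinase that acts on ion channels and transporters, had 2707, 2239 and 2380 after acute morphine, against 1083, 932 and 1205 after saline. The change was 1.19 ± 0.15 (adjusted p = 4.38e-05). TSC22 domain family 3 (Tsc22d3), the glucocorticoid-induced leucine zipper that restrains inflammatory transcription, had 1796, 1735 and 1626 after acute morphine, against 586, 792 and 844 after saline, a change of 1.23 ± 0.15 (adjusted p = 3.89e-05). Of 4 Tsc22d3 probe sets, 3 rose and the other had a change of 0.03. CCAAT/enhancer binding protein delta (Cebpd), a transcription factor of the acute phase response, had 274, 178 and 196 after acute morphine, against 115, 108 and 95 after saline, a change of 1.00 ± 0.16 (adjusted p = 0.00201). A second Cebpd probe set had a change of 0.10 (adjusted p = 0.899), with groups that overlapped. By brightest probe set, these 5 genes rose in every fit that left out an array. Their groups did not overlap, as for all 88 calls and for 16.7% of all probe sets tested.

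The calls of several further members of the list depended on saline replicate 1. Zbtb16, a zinc finger transcriptional repressor also known as PLZF, had 919, 922 and 921 after acute morphine, against 235, 277 and 438 after saline. Its change was 1.59 ± 0.29 (adjusted p = 0.00649), a call lost without saline replicate 1, while another Zbtb16 probe set rose by 1.76 and was called in every fit that left out an array. The remaining one of its 3 probe sets was not called. Perilipin 4 (Plin4), a lipid droplet coat protein, had 460, 496 and 371 after acute morphine, against 126, 187 and 262 after saline. The change of 1.26 ± 0.22 (adjusted p = 0.00473) was not past the threshold without saline replicate 1 or acute morphine replicate 2. Pyruvate dehydrogenase kinase 4 (Pdk4), which turns cells from glucose towards fat as fuel, had 341, 270 and 232 after acute morphine, against 107, 155 and 139 after saline, and rose by 1.07 ± 0.19 (adjusted p = 0.00367, a call lost without saline replicate 1). Sulfotransferase 1A1 (Sult1a1) had 452, 404 and 375 after acute morphine, against 168, 147 and 259 after saline, and the change of 1.14 ± 0.22 (adjusted p = 0.011) was lost without any 1 of 4 arrays, saline replicate 1 among them.

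**Figure D1:**
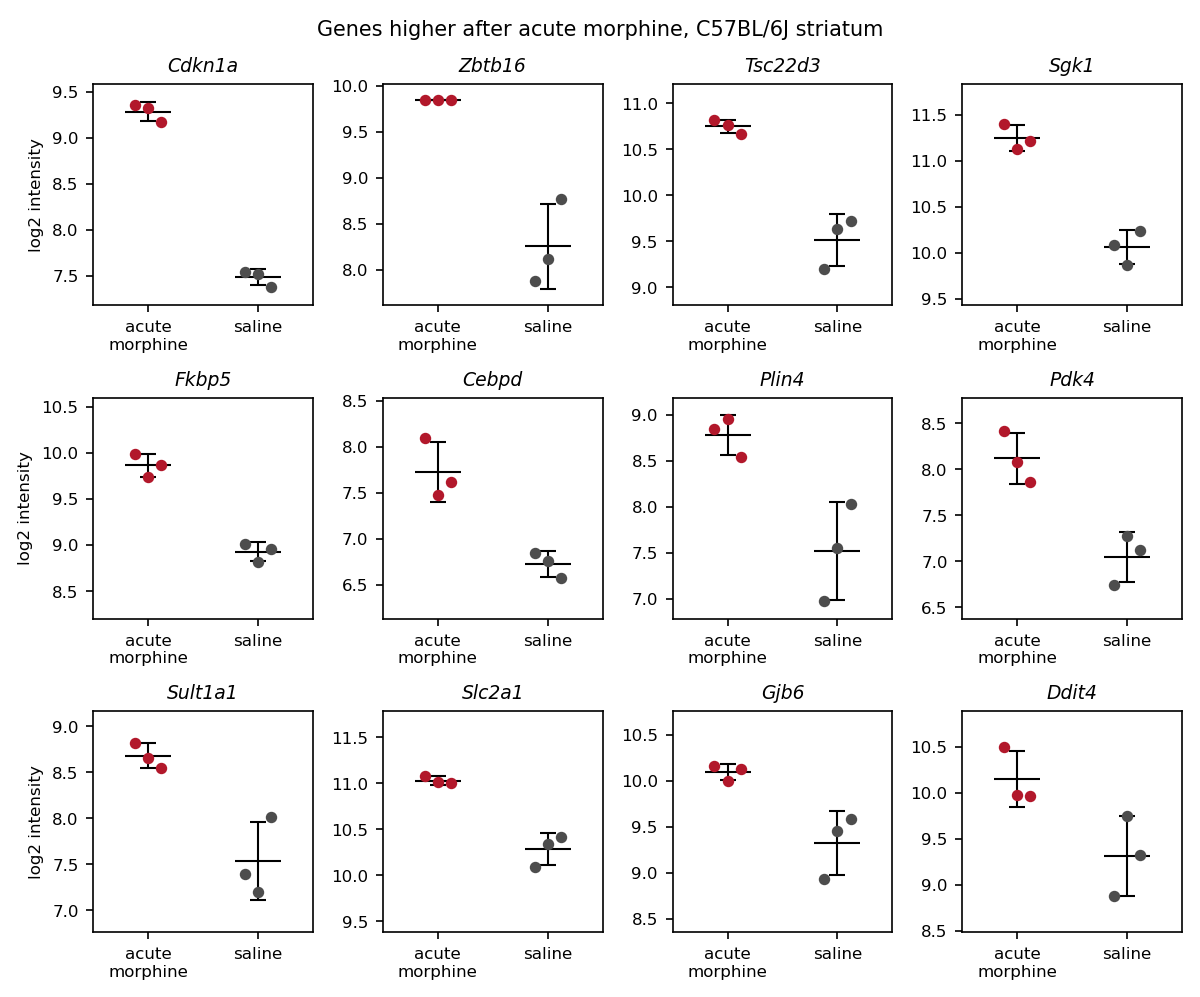
Log2 intensity of 12 genes that rose, with acute morphine at left and saline at right in each panel. Points are the 3 arrays of a group, the long line is the mean and the bars are ± SD. In every panel the 3 acute morphine arrays lie above the 3 saline arrays, as for every probe set that rose past the threshold.

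The 13 rises of the list included genes beyond those described so far, and membership is not marked for rises described below. Some other members of the list did not pass the threshold. Klf9, a transcription factor induced by glucocorticoid in brain, had 3179, 3067 and 3026 after acute morphine, against 2542, 2553 and 2586 after saline, groups that did not overlap, but the change of 0.27 had an adjusted p of 0.174. The metallothionein Mt2 had a change of 0.26 (adjusted p = 0.269), Klf15 of 0.54 (adjusted p = 0.138), and Arrdc2 of 0.81 with an error of 0.29 (adjusted p = 0.309). Changes of the clock gene Per1 (0.01) and the phosphatase Dusp1 (0.08) were within their errors. The 2 members below 0 were the receptors themselves. The glucocorticoid receptor gene Nr3c1 had 538, 495 and 493 after acute morphine, against 601, 686 and 633 after saline (-0.33, adjusted p = 0.358), and the mineralocorticoid receptor gene Nr3c2 had a change of -0.25 (adjusted p = 0.45).

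The lists of fuel metabolism held few calls. The glucose transporter Slc2a1 (GLUT1), which carries glucose across the capillary wall and into astrocytes, had 2164, 2060 and 2046 after acute morphine, against 1089, 1294 and 1370 after saline. It rose by 0.75 ± 0.12 (adjusted p = 0.00252), and all 3 of its probe sets rose, by 0.66 to 0.94, the smallest of them only with saline replicate 1 included. Gap junction protein beta 6 (Gjb6), the connexin 30 of astrocytes, had 1144, 1023 and 1118 after acute morphine, against 489, 699 and 768 after saline, a change of 0.77 ± 0.15 (adjusted p = 0.00892) that was lost without saline replicate 1 or acute morphine replicate 1 or 3. Of 26 genes of glucose transport and use, 2 rose (Pdk4 and Slc2a1) and 0 fell, with a median of -0.02. Beside these, 0.194% of all genes rose and 0.28% fell. At an unadjusted p below 0.05, 6 were higher and 0 lower, beside 3.33% and 8.96% of all genes. Txnip, which holds glucose uptake in check, had a change of 0.57 with an adjusted p of 0.0555. In the list of fatty acid oxidation, acyl-CoA and ketone genes, Plin4 was the 1 member of 25 that rose. Of the 25, 16 had a change below 0 (57.3% of all genes had), and the median was -0.07.

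The calls of several other rises varied with the arrays. DNA damage inducible transcript 4 (Ddit4), an inhibitor of the growth kinase mTORC1, had 1444, 1009 and 996 after acute morphine, against 471, 857 and 641 after saline. Its change of 0.83 ± 0.18 (adjusted p = 0.037) was lost without any 1 of 5 arrays and held only when saline replicate 2 was left out. The inhibitor of NF-kappa-B, Nfkbia, had 2488, 2111 and 2179 after acute morphine, against 1651, 1584 and 1643 after saline, and rose by 0.47 ± 0.09 (adjusted p = 0.00896, lost without acute morphine replicate 1). Of its 5 probe sets, a dimmer one also rose, by 0.71 (adjusted p = 0.0341), and the others were not called. Trp53inp1, a p53 target in the stress response, had 598, 486 and 513 after acute morphine, against 316, 368 and 288 after saline, and rose by 0.72 ± 0.12 (adjusted p = 0.00252) in every fit that left out an array. Of 18 p53-responsive and apoptosis genes, 2 rose (Cdkn1a and Trp53inp1), beside 0.194% of all genes, and the median was 0.19. At an unadjusted p below 0.05, 5 were higher and 0 lower, beside 3.33% and 8.96% of all genes. The BH3 gene Pmaip1 was among the 5 (0.54, adjusted p = 0.172). The p53 regulator Mdm2 had a change of -0.06.

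Camk1g, a neuronal kinase of the calcium/calmodulin-dependent family, had 680, 655 and 592 after acute morphine, against 429, 353 and 442 after saline. It rose by 0.66 ± 0.10 (adjusted p = 0.00188). Camk1g was the 1 member of 15 calcium/calmodulin kinase and phosphatase genes past the threshold, beside rises in 0.194% of all genes. Aff1, a component of transcription elongation complexes, rose by 0.70 ± 0.12 (adjusted p = 0.00302) and Smim3 by 0.95 ± 0.13 (adjusted p = 0.000156), both in every fit that left out an array. Ecto-5′-nucleotidase (Nt5e), which forms adenosine outside the cell, had 433, 342 and 375 after acute morphine, against 200, 222 and 248 after saline. The change of 0.78 ± 0.15 (adjusted p = 0.0119) was lost without saline replicate 1 or acute morphine replicate 1 or 3. The other Nt5e probe set was not called. The remaining large rises were Net1 (1.40 ± 0.26, adjusted p = 0.00896), a guanine exchange factor for RhoA that passed the signal limit on the acute morphine arrays only, xanthine dehydrogenase Xdh (1.31 ± 0.23, adjusted p = 0.00475) and Gm19439 (1.38 ± 0.22, adjusted p = 0.00185). The calls of Net1 and Xdh were lost without saline replicate 1, and that of Net1 also without acute morphine replicate 1.

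Promoter sequence was set beside the rises because the receptor binds DNA at a palindrome whose core is ACANNNTGT. RefSeq windows of 300 bases (GRCm38.p6, 250 before to 50 after a start site) were at hand for 18 of the 29 genes that rose and 36 of the 46 that fell. The core, which reads the same on both strands, was in the windows of 2 of the 18 genes that rose (11.1%; Camk1g and Sgk1) and 0 of the 36 that fell, beside 2135 of 27025 genes in all (7.9%). The heat shock core GAANNTTC, the site of another stress pathway, was found in 2 of the 18 (11.1%; Net1 and Sgk1), in 2 of the 36 (5.56%; Dusp16 and Rab34) and in 2442 of all genes (9.04%). A match of these letters is a description of the window and not a measured site. The 250 bases before the start are shown for Camk1g and for the 2 of 6 Sgk1 start sites whose windows held the core, in the direction of transcription, with the matched letters in capitals.
Camk1g (chr1:193370283-193370532, minus strand): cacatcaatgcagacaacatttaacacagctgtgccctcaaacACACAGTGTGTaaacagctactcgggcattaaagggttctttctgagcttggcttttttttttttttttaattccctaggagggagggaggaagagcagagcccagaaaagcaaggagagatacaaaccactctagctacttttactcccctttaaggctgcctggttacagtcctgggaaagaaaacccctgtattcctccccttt
Sgk1, first site (chr10:21978422-21978671, plus strand): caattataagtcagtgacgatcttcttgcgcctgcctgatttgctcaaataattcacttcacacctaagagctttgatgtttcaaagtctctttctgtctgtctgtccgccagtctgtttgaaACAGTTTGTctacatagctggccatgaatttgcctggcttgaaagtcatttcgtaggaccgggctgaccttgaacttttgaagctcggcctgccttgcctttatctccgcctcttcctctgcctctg
Sgk1, second site (chr10:21993640-21993889, plus strand): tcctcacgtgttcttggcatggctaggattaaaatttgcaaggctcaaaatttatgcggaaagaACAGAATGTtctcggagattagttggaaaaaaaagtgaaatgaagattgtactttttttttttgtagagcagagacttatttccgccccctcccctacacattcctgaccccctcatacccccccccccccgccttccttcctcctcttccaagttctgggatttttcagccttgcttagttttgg
In Camk1g, 2 overlapping matches began 207 and 205 bases before the start. In Sgk1 the match began 127 bases before the first site and 186 bases before the second, where a heat shock core match overlapped it.

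The genes that fell included products of oligodendrocytes. Their list too was written with earlier results of these data known, so its counts are a description. Of 35 measured genes of the oligodendrocyte and myelin list, 5 fell and 0 rose by brightest probe set, 33 had a change below 0, and the median was -0.34, beside falls in 0.28% of all genes, changes below 0 in 57.3% and a median of -0.036. At an unadjusted p below 0.05, 18 were lower and 0 higher, beside 8.96% and 3.33% of all genes. The mean log2 intensity of the list was 9.17 to 9.27 on the acute morphine arrays and 9.51 to 9.72 on the saline arrays. In this bulk tissue, fewer oligodendrocytes and less RNA per oligodendrocyte cannot be told apart. Without saline replicate 1, 3 members fell, and over the fits that left out each array the number was 2 to 6.

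Oligodendrocytic myelin paranodal and inner loop protein (Opalin), a membrane protein of mature oligodendrocytes, had 485, 407 and 447 after acute morphine, against 765, 867 and 723 after saline. It fell by 0.81 on the log2 scale (SE 0.14, adjusted p = 0.00252). Aspartoacylase (Aspa), which releases acetate from N-acetylaspartate for lipid synthesis, had 326, 281 and 289 after acute morphine, against 491, 556 and 509 after saline, and fell by 0.80 (SE 0.13, adjusted p = 0.00252). Both were called in every fit that left out an array. UDP galactosyltransferase 8A (Ugt8a), the enzyme that makes the galactolipids of myelin, had 846, 764 and 821 after acute morphine, against 1413, 1636 and 1022 after saline, and fell by 0.72 (SE 0.14, adjusted p = 0.0155), a call lost without any 1 of 4 arrays, saline replicate 1 among them. The other Ugt8a probe set was not called.

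Plasmolipin (Pllp), a myelin membrane protein, had 510, 475 and 512 after acute morphine, against 690, 788 and 788 after saline, and fell by 0.60 (SE 0.12, adjusted p = 0.0108, lost without acute morphine replicate 2 or saline replicate 2). Serpinb1a, a protease inhibitor, had 102, 69.8 and 68.6 after acute morphine, against 192, 233 and 156 after saline. It fell by 1.28 (SE 0.29, adjusted p = 0.0445), the largest fall of a gene past the threshold, but the call was lost without any 1 of 4 arrays, saline replicate 1 among them, and its adjusted p was 0.0591 with an estimated correlation between arrays that shared a treatment and a number. Several other myelin genes were not called. Myelin basic protein (Mbp) had 6134, 6752 and 6326 after acute morphine, against 6253, 6797 and 6378 after saline, and changes were -0.02 for Mbp, -0.07 for Mobp, -0.10 for Cldn11, -0.11 for Mal and -0.17 for Cnp, none past the threshold. Mog had -0.34 (adjusted p = 0.468), and the lineage factors Olig2 and Sox10 had -0.54 (adjusted p = 0.138) and -0.43 (adjusted p = 0.358).

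**Figure D2:**
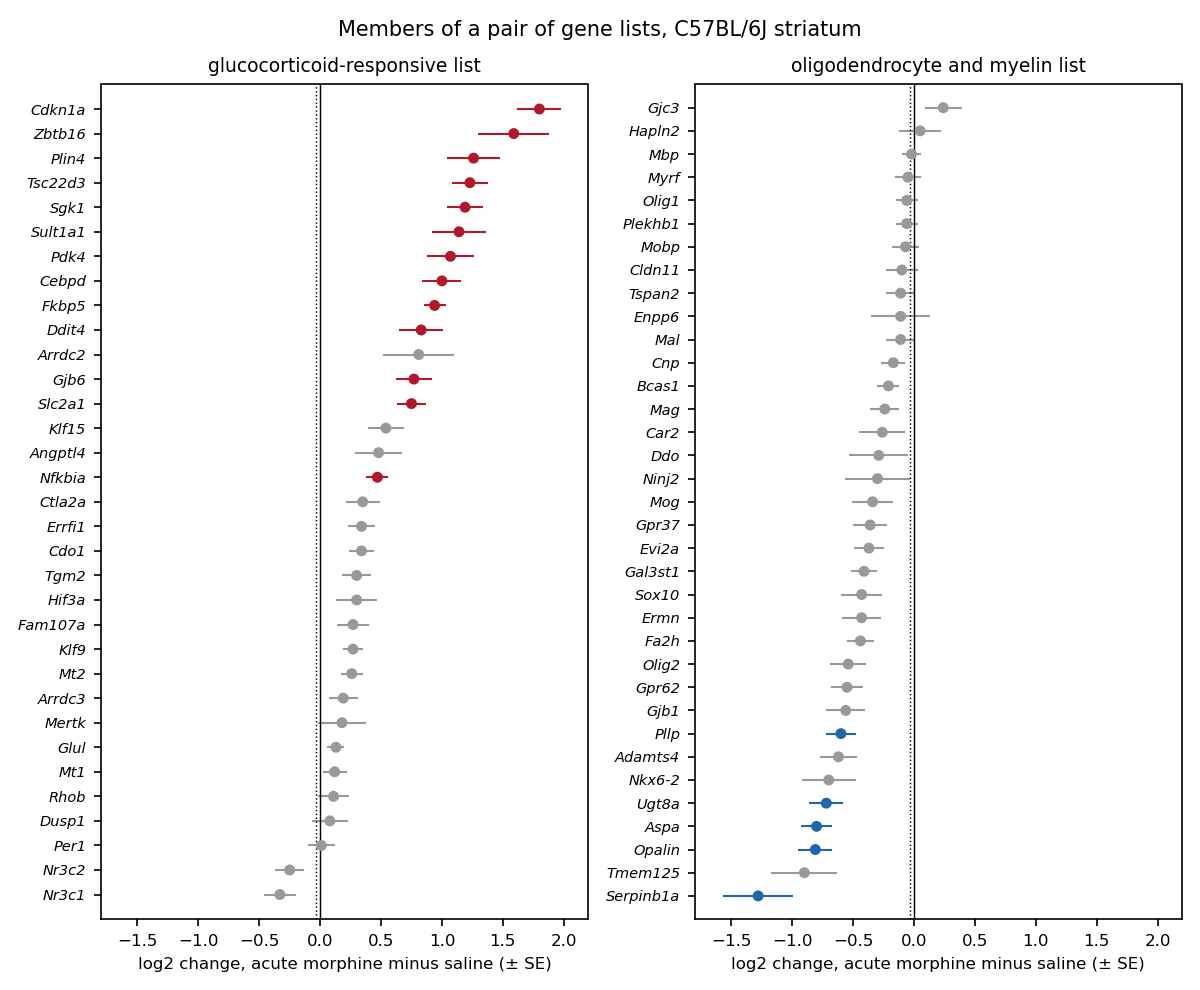
Log2 change, acute morphine minus saline, of the 33 measured glucocorticoid-responsive genes (left) and the 35 oligodendrocyte and myelin genes (right), with bars of ± SE. Red points rose and blue points fell at an adjusted p below 0.05, grey points did not pass, and the dotted line is the median of all genes, -0.036; 13 points are red at left and 5 are blue at right.

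Vessel genes moved in both directions, with more of them lower. Of 21 endothelial genes, 2 rose (Slc2a1 and Plat) and 3 fell (Mcam, Flt1 and Tek), beside 0.194% and 0.28% of all genes. The median was -0.15, and 15 had a change below 0 (57.3% of all genes had). At an unadjusted p below 0.05, 4 were higher and 9 lower, beside 3.33% and 8.96% of all genes. Tissue plasminogen activator (Plat), a protease that dissolves clots and also acts at synapses, had 674, 650 and 652 after acute morphine, against 340, 526 and 396 after saline, and rose by 0.67 ± 0.13 (adjusted p = 0.00873, lost without saline replicate 1). The other Plat probe set was not called. The adhesion molecule Mcam had 149, 146 and 156 after acute morphine, against 300, 390 and 268 after saline, and fell by 1.07 (SE 0.22, adjusted p = 0.02). The VEGF receptor Flt1 had 286, 245 and 239 after acute morphine, against 598, 353 and 355 after saline, and fell by 0.72 (SE 0.15, adjusted p = 0.02). The angiopoietin receptor Tek had 142, 145 and 141 after acute morphine, against 199, 188 and 194 after saline, and fell by 0.44 (SE 0.10, adjusted p = 0.0366).

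None of these 3 falls was called without saline replicate 1 or without acute morphine replicate 2 or 3, Mcam was called only when saline replicate 3 was left out, and Tek in no fit that left out an array. Of the other 3 Flt1 probe sets, 1 fell by 1.08 but was above the signal limit on the saline arrays only, so that it passed the filter through the group where it was high, and the others had changes of -0.37 and 0.10. Claudin 5 (Cldn5), the tight junction protein of brain capillaries, had a change of -0.51 (adjusted p = 0.377), and the lactate transporter Slc16a1 one of -0.67 (adjusted p = 0.0584). The mean log2 intensity of the endothelial list was 8.38 to 8.42 on acute morphine arrays and 8.48 to 8.68 on saline arrays. Of 12 pericyte and vessel wall genes, 0 passed the threshold and the median was -0.14. At an unadjusted p below 0.05, 0 were higher and 2 lower, beside 3.33% and 8.96% of all genes.

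Other named genes that fell are given singly. The chemokine Cxcl12 had 325, 284 and 265 after acute morphine, against 535, 673 and 492 after saline, and fell by 0.95 (SE 0.18, adjusted p = 0.0108, lost without acute morphine replicate 2 or 3 or saline replicate 2). A second Cxcl12 probe set had a change of -0.09 (adjusted p = 0.814), with groups that overlapped. Gab1, an adaptor of growth factor receptors, had 340, 317 and 272 after acute morphine, against 598, 649 and 511 after saline, and fell by 0.92 (SE 0.16, adjusted p = 0.00367, lost without acute morphine replicate 3). A dimmer Gab1 probe set fell by 0.74 (adjusted p = 0.00252) and was called in every fit that left out an array. The remaining one of its 3 probe sets was not called. The transcriptional corepressor Tle4 had 708, 637 and 539 after acute morphine, against 1224, 1082 and 887 after saline, and fell by 0.76 (SE 0.12, adjusted p = 0.00216). Of its 3 probe sets, only this brightest one was called.

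Cdc42ep2, an effector of the cytoskeletal regulator Cdc42, had 131, 129 and 138 after acute morphine, against 177, 266 and 217 after saline, and fell by 0.71 (SE 0.12, adjusted p = 0.00216). With Tle4 it was called in every fit that left out an array. Tmem98 fell by 0.98 (SE 0.20, adjusted p = 0.0222), Trim59 by 0.73 (adjusted p = 0.0447), Rffl by 0.71 (adjusted p = 0.0144) and Ly86 by 0.70 (adjusted p = 0.0302), and none of these 4 was called without acute morphine replicate 2 or 3 or saline replicate 2. All but Rffl were lost without saline replicate 1 too, and Trim59 also without acute morphine replicate 1. The progenitor and astroglial factor Sox2 had 907, 805 and 906 after acute morphine, against 1185, 1404 and 1104 after saline, and fell by 0.49 (SE 0.10, adjusted p = 0.0108, lost without acute morphine replicate 2 or saline replicate 2). The receptor tyrosine kinase Erbb3, used by glia, fell by 0.68 (adjusted p = 0.00696, lost without acute morphine replicate 3 or saline replicate 1 or 2). For Nrp1, Gli3 and Ermn a dimmer probe set fell, by 0.89, 0.67 and 0.68, while the brightest had changes of -0.28, -0.22 and -0.43 that did not pass the threshold. The dimmer set of Gli3 was lost without acute morphine replicate 2 or saline replicate 1 or 2, and that of Ermn without any 1 array but acute morphine replicate 1.

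**Figure D3:**
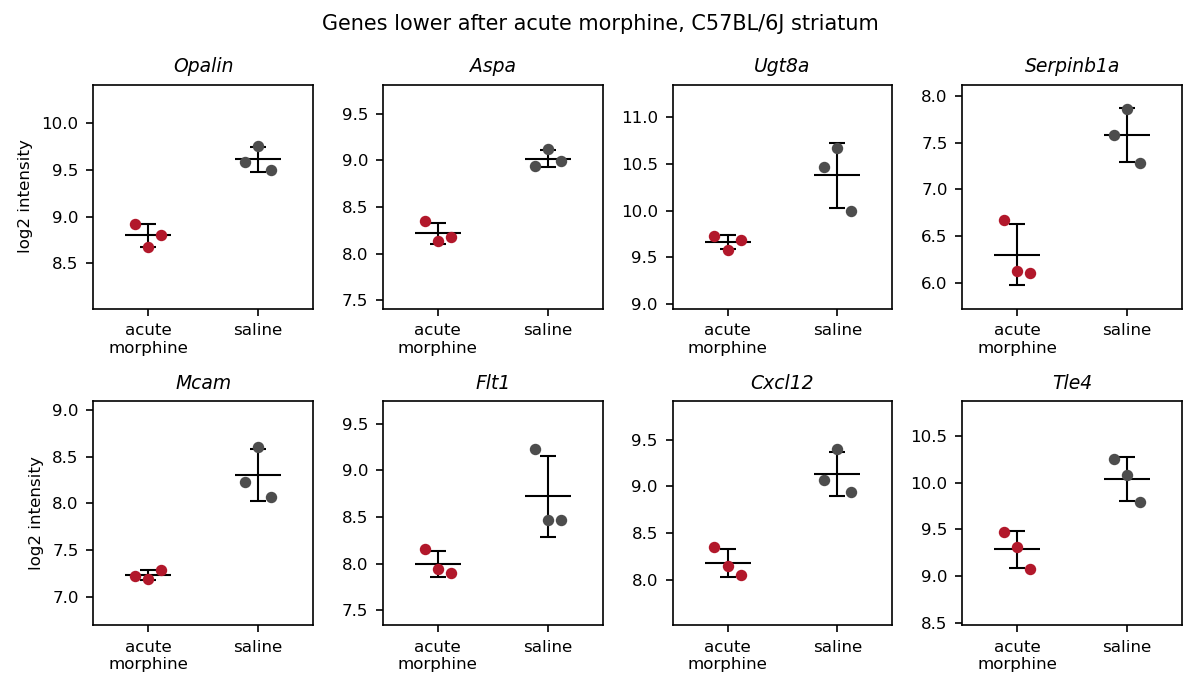
Log2 intensity of 8 genes that fell, with acute morphine at left and saline at right in each panel. Points are the 3 arrays of a group, the long line is the mean and the bars are ± SD. In every panel the 3 acute morphine arrays lie below the 3 saline arrays, as for every probe set that fell past the threshold.

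Of 29 medium spiny neuron genes, 1 fell and 0 rose, beside falls in 0.28% of all genes, and the median was -0.13. At an unadjusted p below 0.05, 1 was higher and 10 were lower, beside 3.33% and 8.96% of all genes. The gene that fell was Slc35d3, a transporter needed for dopamine receptor traffic, which had 402, 322 and 275 after acute morphine, against 634, 627 and 511 after saline, and fell by 0.84 (SE 0.16, adjusted p = 0.0119, lost without any 1 of 4 arrays, saline replicate 1 among them). Dopamine receptor changes were -0.11 for Drd1 and -0.30 for Drd2 (adjusted p = 0.291), and the striatal phosphoprotein DARPP-32 (Ppp1r1b) had 2528, 2869 and 2252 after acute morphine, against 2168, 2844 and 2651 after saline. These defining markers were bright on all 6 arrays. The mean log2 intensity of the list was 10.22 to 10.48 on acute morphine arrays and 10.48 to 10.60 on saline arrays.

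None of 30 genes of a list of opioid peptides, their receptors and the downstream G proteins, RGS proteins, channels, cyclases and kinases passed the threshold in limma, with a median of -0.06 and 1 higher and 3 lower at an unadjusted p below 0.05. The mu opioid receptor gene Oprm1, the site of morphine action, had 262, 251 and 288 after acute morphine, against 228, 207 and 179 after saline, groups that did not overlap, with a change of 0.39 (SE 0.15, adjusted p = 0.359). The kappa receptor Oprk1 had 0.13, and the peptide precursors proenkephalin (Penk) and prodynorphin (Pdyn) had -0.05 and 0.02. Of 32 immediate early genes, which neurons switch on within minutes of activity, 0 passed, with a median of 0.12 and 1 higher and 3 lower at an unadjusted p below 0.05. Fos had 376, 388 and 453 after acute morphine, against 402, 515 and 178 after saline, so that the saline pools spread wider than the acute morphine pools. Homer1 had 950, 963 and 869 after acute morphine, against 1629, 1209 and 1126 after saline (-0.49, adjusted p = 0.105). Of 28 GABA and glutamate receptor genes, 0 passed, with a median of -0.08 and 0 higher and 4 lower at an unadjusted p below 0.05. Beside each of these lists, 0.194% of all genes rose and 0.28% fell past the threshold. At an unadjusted p below 0.05, 3.33% of all genes were higher and 8.96% lower.

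Heat shock and chaperone genes, another stress class, showed no call. Of 20 measured, 0 passed the threshold in limma and the median was -0.09, with 1 higher and 3 lower at an unadjusted p below 0.05. Beside this list and those that follow, 3.33% of all genes were higher and 8.96% lower at that p. Past the threshold, 0.194% of all genes rose and 0.28% fell. Hspa1b, the inducible HSP70, had 493, 797 and 541 after acute morphine, against 455, 446 and 420 after saline (0.44, adjusted p = 0.347), with 1 high pool in the acute morphine group. None of 19 circadian clock genes passed (median -0.03, with 0 higher and 1 lower at an unadjusted p below 0.05), and Dbp, a clock output factor, had 819, 937 and 825 after acute morphine, against 1589, 1123 and 1176 after saline (-0.58, adjusted p = 0.225). Gjb6 was the 1 of 23 astrocyte genes to pass by brightest probe set (median 0.00), beside rises in 0.194% of all genes. When any probe set of a gene counted, 2 rose. At an unadjusted p below 0.05, 4 astrocyte genes were higher and 0 lower. Changes were 0.04 for Gja1, -0.10 for Aqp4 and -0.34, the lowest of the list, for Gfap. Of 17 microglial genes 0 passed (median -0.15, with 0 higher and 4 lower at an unadjusted p below 0.05), and Cx3cr1 had -0.49 (adjusted p = 0.29). Cortical markers, of which 0 of 17 passed and 0 had an unadjusted p below 0.05, had a median of 0.12 and mean log2 intensities of 8.80 to 9.02 on acute morphine arrays and 8.47 to 9.08 on saline arrays.

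**Figure D4:**
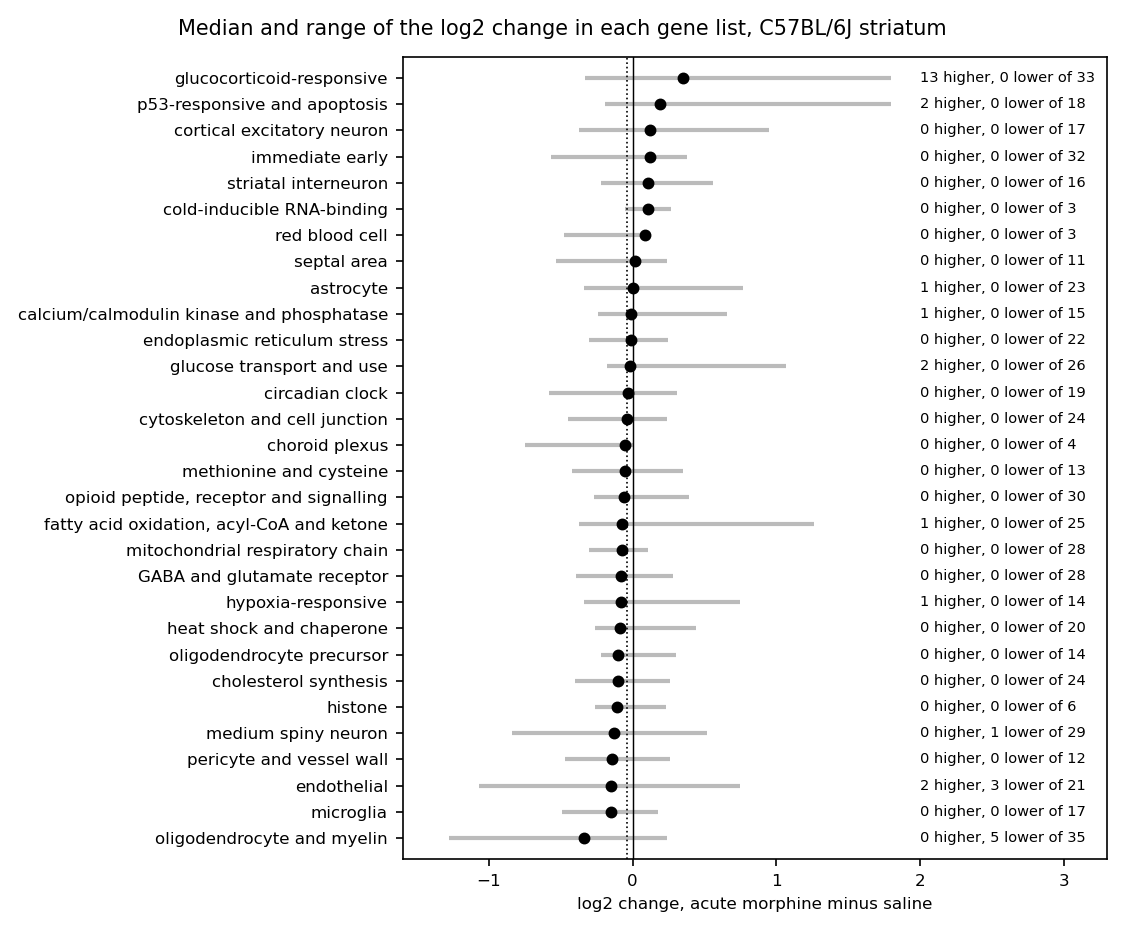
Median (point) and range (bar) of the log2 change, acute morphine minus saline, over the measured members of each of 30 gene lists, with the number that rose and fell at an adjusted p below 0.05 at right. The dotted line is the median of all genes, -0.036; the glucocorticoid-responsive list lies highest (0.35) and the oligodendrocyte and myelin list lowest (-0.34).

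The same contrast was taken in the other strains, whose arrays gave none of the C57BL/6J changes but entered the fit that set the spread behind the calls. Of the 37 probe sets that rose in C57BL/6J, the change was above 0 for 33 probe sets in 129P3/J (52.1% of all probe sets), 36 in DBA/2J (52.6% of all) and 36 in SWR/J (57.4% of all), and their medians in these strains were 0.59, 0.61 and 0.55, beside 0.007, 0.015 and 0.029 over all probe sets. Of these, 4 also rose past the threshold in 129P3/J (0.0155% of all did), 17 in DBA/2J (0.699% of all) and 5 in SWR/J (0.0502% of all). Of the 51 that fell, the change was below 0 for 45 in 129P3/J (47.9% of all), 34 in DBA/2J (47.4%) and 41 in SWR/J (42.6%), with medians of -0.16, -0.07 and -0.21. Only Opalin, in DBA/2J, fell past the threshold in another strain, where falls were 0%, 0.282% and 0.00386% of all probe sets in 129P3/J, DBA/2J and SWR/J.

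Fkbp5 had changes of 0.94 in C57BL/6J, 0.98 in DBA/2J, 0.90 in 129P3/J and 0.76 in SWR/J, each past the threshold, and Camk1g had 0.66, 0.61, 0.60 and 0.58 in the same order of strains, also past it in each. Cdkn1a had 1.80 in C57BL/6J and 1.14, 1.06 and 1.09 in 129P3/J, DBA/2J and SWR/J. Sgk1 had 1.19 in C57BL/6J and 0.12, 0.60 and 0.48 in 129P3/J, DBA/2J and SWR/J. Ddit4 and Nfkbia, at 0.83 and 0.47 in C57BL/6J, had changes between -0.21 and 0.13 in the other strains. Opalin had -0.81 in C57BL/6J and -0.32, -0.72 and -0.45 in 129P3/J, DBA/2J and SWR/J. The medians of the glucocorticoid-responsive list were 0.24, 0.33 and 0.25 in 129P3/J, DBA/2J and SWR/J, beside 0.016, 0.039 and 0.042 over all genes, and those of the oligodendrocyte and myelin list were -0.07, -0.07 and -0.12.

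**Figure D5:**
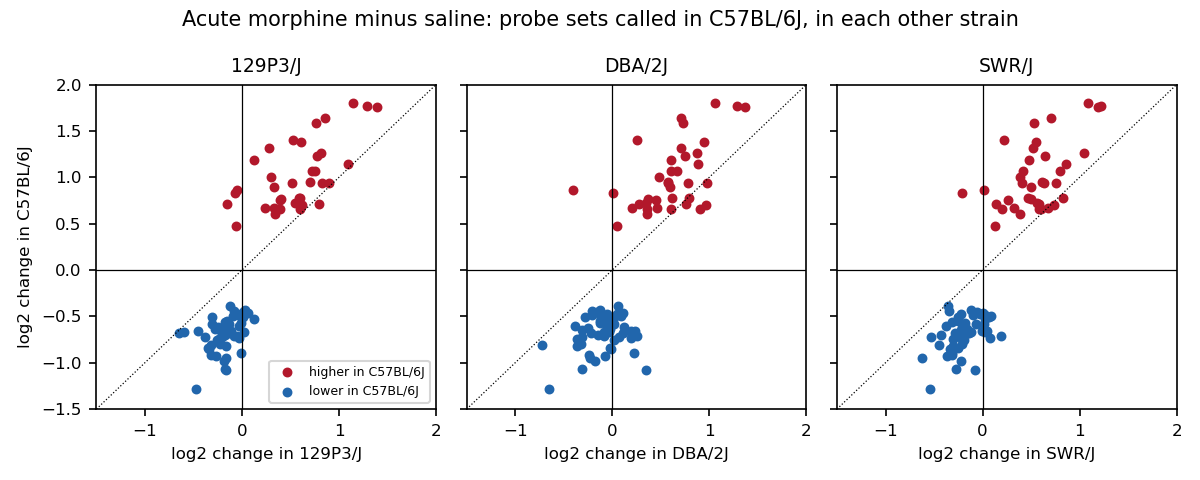
Log2 change in C57BL/6J (vertical axis) against that in 129P3/J, DBA/2J and SWR/J (horizontal axes) for the 37 probe sets that rose (red) and the 51 that fell (blue) in C57BL/6J; the dotted line marks equal changes. Most red points lie right of 0 and above the line. Most blue points lie left of 0, with medians of -0.16, -0.07 and -0.21 in 129P3/J, DBA/2J and SWR/J, and they reach -0.72 (Opalin in DBA/2J).

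Whether the C57BL/6J response differed from that of the other strains was tested directly, as its change minus the mean of the other 3. In limma, 0 of 25885 probe sets (0%) passed the threshold, with a smallest adjusted p of 0.157, while 4194 (16.2%) had an unadjusted p below 0.05, 1177 of them positive and 3017 negative; the fit without moderated variances called 0, a random block 338 and estimated array weights 1581. Among the 10 genes of smallest p, Sgk1 was 0.79 ± 0.17 higher in its change in C57BL/6J, and Rffl (-0.84), Hpgd (-0.95), Phtf2 (-0.74), Fam76b (-0.70), Pxdn (-0.67), Cd2ap (-0.58), Xrcc1 (-0.58), Cog3 (-0.56) and Sox2 (-0.50) were lower, each with an adjusted p of 0.157. Larger changes in C57BL/6J among its own calls are partly fixed by having been called there.

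Chronic morphine in C57BL/6J, given 3 times a day for 4 days in rising doses and then in a final injection, was set against the same 3 saline arrays, so the values are given only side by side. Its final dose was higher than the 20 mg/kg of acute morphine, so repetition and last dose cannot be told apart. Zbtb16 had 1.59 after acute and 1.75 after chronic morphine, Fkbp5 0.94 and 0.75, Cdkn1a 1.80 and 1.25, and Plin4 1.26 and 1.31. Pdk4 had 1.07 after acute and 0.13 after chronic morphine, Nt5e 0.78 and -0.11, Trp53inp1 0.72 and 0.03, and Cebpd 1.00 and 0.19. Opalin had -0.81 after acute and -1.15 after chronic morphine, and Aspa -0.80 and -0.90.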

How the data were processed

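Pools of striatal RNA were hybridized to Mouse Genome 430 2.0 arrays. The authors quantile normalized the arrays and summarized perfect match and mismatch probes by the dChip model, and the deposited values are linear intensity per probe set, with a floor of 6.69 that held 3.76% to 4.06% of probe sets per array. Values were taken to log2, and 2 empty cells were set to the floor. The 64 control probe sets were left out. Group means of all 36 arrays in 12 groups were fitted with limma 3.58.1 (R 4.3.3, statmod 1.5.0; 24 residual degrees of freedom) after testing the scripts on simulated data, with a contrast of acute morphine minus saline in C57BL/6J, two-sided, Benjamini-Hochberg adjusted over 25885 probe sets at 0.05. A second contrast set this change against the mean change of the other 3 strains. The number of arrays, 3 per group, limits the precision; the median standard error was 0.15 on the log2 scale. Probe sets were named through the platform annotation, with symbols updated by Entrez identifier against RefSeq GRCm38.p6: 21799 had 1 symbol, 569 several and 3517 none, and only the first kind was named. Genes were named as the 15 largest rises and falls past the threshold with groups that did not overlap, up to 4 members of each of 30 gene lists, the 10 smallest p for the strain difference, and genes the study discussed; other genes named are list members or called probe sets, some chosen after their values were seen. The members and lists were chosen with earlier results of these data known. Alternatives were other filters, normalizations, added constants, variance models, blocks, array weights and leaving out each array.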

Additional observations from a re-analysis of the deposited data

How the results depend on the processing

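Calls depended most on which arrays set the spread. For the 37 probe sets that rose, the count was 1 on the 6 arrays alone, 4 on the 9 C57BL/6J arrays, 93 with array weights (saline replicate 1 had a weight of 0.33), and 26 to 48 when 1 array was left out. For the 51 that fell it was 0 on the 6 arrays, 0 on the 9 arrays, 20 with no filter, 185 with array weights, 12 at an adjusted p below 0.01, and 10 to 86 when 1 array was left out. The strain difference, with 0 calls, had 338 with a random block of treatment and replicate number, 1581 with array weights, and 0 to 4 when 1 array was left out. A further quantile normalization gave 42 rises and 37 falls, so rises were 53.2% of calls against 42.0%. The cause was not tested.

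Deviations of same-numbered acute morphine and saline arrays correlated at 0.081, 0.262 and -0.185 for replicates 1, 2 and 3. Arrays of different numbers correlated at -0.23 to 0.145, so replicate 2 lay above that range and the others within it. The fit with a replicate block gave 34 rises and 38 falls. The random block had an estimated correlation of 0.244. With it, 80 of the 88 calls were kept, the exceptions being Nostrin, Mpp7, Fam20a, Rab34, Zfp511, Ets1, Rell1 and Serpinb1a. Of 37 named genes past the threshold, 36 were lost on the 6 arrays, 33 on the 9 arrays and 18 without saline replicate 1.

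Among the named genes, directions turned only for ones that had not passed the threshold. When 1 array was left out, the log2 change ranged from -0.12 to 0.55 for Lhfpl3, -1.20 to 0.02 for Ttr, -0.15 to 0.03 for Clic6, -0.11 to 0.42 for Slc4a1, -0.01 to 0.46 for Srsf5, -0.02 to 0.21 for Cirbp, -0.01 to 0.10 for Mef2c and -0.15 to 0.04 for Npy5r. It also turned for Mef2c with median centring (-0.02) and over all its probe sets (-0.08), for Pxdn (0.01) and Grik2 (0.01) with quantile normalization, and for Creb1 (0.0035) and Grik2 (0.24) over all their probe sets.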

Other observations

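Several lists had no member past the threshold in limma by brightest probe set. When any probe set of a gene counted, 1 cytoskeleton and cell junction gene rose and 1 oligodendrocyte precursor gene fell. At an unadjusted p below 0.05, 24 cholesterol synthesis genes had 1 higher and 5 lower (median -0.10), 13 methionine and cysteine genes 3 higher and 1 lower (median -0.05), 22 endoplasmic reticulum stress genes 0 higher and 1 lower (median -0.01), 28 mitochondrial respiratory chain genes 0 higher and 2 lower (median -0.07), 24 cytoskeleton and cell junction genes 1 higher and 3 lower (median -0.04), 6 histone genes 0 higher and 1 lower (median -0.11), and 3 cold-inducible RNA-binding genes 0 in either direction. Of 14 hypoxia-responsive genes, Slc2a1 rose (median -0.08), beside rises in 0.194% of all genes. Over all genes, 3.33% were higher and 8.96% lower at an unadjusted p below 0.05. Among cell types, 14 oligodendrocyte precursor genes had 0 higher and 1 lower (median -0.10), with changes of -0.16 for Pdgfra and -0.02 for Cspg4, 11 septal area genes 0 higher and 1 lower, and 16 striatal interneuron genes (median 0.11), 4 choroid plexus genes and 3 red blood cell genes 0 in either direction.

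Of genes the study discussed, Sgk3 and Fzd2 each had a dimmer probe set that rose, by 0.71 (adjusted p = 0.0433, lost without any acute morphine array or saline replicate 1) and 0.90 (adjusted p = 0.0108, lost without acute morphine replicate 2 or saline replicate 3), while their brightest had changes of 0.45 (adjusted p = 0.178) and 0.44 (adjusted p = 0.0763).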
